A study of Rattus norvegicus with 24 samples.

Results

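The matrix metalloproteinases Mmp2, Mmp9 and Mmp14 and the inhibitors Timp1, Timp2, Timp3 and A2m were followed across rat striatum and substantia nigra, in a study of levodopa-induced dyskinesia. These 7 genes were taken by name, with no threshold on their values, and are 7 of the 16582 genes with a value on the array. They were chosen with earlier results of these data known, so counts of members beside shares of all genes are descriptions. Each gene's value is the mean of the probe sets whose annotation names that gene alone. They are 96 of 213067 probe sets in all, with 5 for Timp1, 7 each for Timp2 and Timp3, 16 for Mmp2, 14 for Mmp9, 12 for Mmp14 and 35 for A2m, and no probe set of a member named a further gene.

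Matrix metalloproteinases are zinc proteases that cut extracellular matrix and proteins at the cell surface, and most are made as inactive precursors that other proteases open. Tissue inhibitors of metalloproteinases, the Timp proteins, close the active site, while A2m is a large secreted protein that traps many kinds of protease. In brain, Mmp9 is known for its part in remodelling the matrix around synapses, and Timp1 for its induction by injury and by neuronal activity.

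The arrays were Affymetrix exon-level arrays on total RNA from punches of 14 adult male Sprague Dawley rats, of which 10 gave both tissues and 4 gave 1 tissue. Each rat had a pair of brain injections, and a lesion stood for dopamine loss of over 90%. Daily injections began 3.5 weeks after surgery and dyskinesia was rated in 7 sessions. Rats lesioned with 6-hydroxydopamine, which kills the dopamine neurons that take it up, and then given levodopa were split by outcome into dyskinetic and non-dyskinetic. Untreated rats had the same kind of lesion and vehicle injections in place of levodopa. Rats called intact had a saline injection instead of a lesion but did receive levodopa, so no group was free of both. Each group had 3 rats in each tissue. The striatal punch was 2 mm by 2 mm from the lateral part and the nigral punch 0.5 mm by 1.5 mm. The hemisphere sampled, the levodopa dose and the interval between the last injection and death were not given in the sources used here.

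All values are log2 values, so that a difference of 1 is a factor of 2. They are read within a gene, because probe sets of different genes bind with different strength. After ± stands the SD of 3 arrays for a level, and the standard error from the fit for a difference. Differences were tested with limma over the 12 arrays of a tissue, with p adjusted by Benjamini and Hochberg over the 12436 genes that were left once the lowest 25% by tissue mean were set aside. A gene passed the test at an adjusted p under 0.05. All 7 members were tested in striatum and 6 of 7 in nigra, where Mmp9 fell below the filter. The number of arrays limits the precision.

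The tissue labels were checked against markers. The mean of 5 markers of striatal projection neurons ran from 11.53 to 11.73 in the 12 striatal arrays, and that of 5 dopamine neuron markers had a median of 12.04 in intact nigra and ran from 10.29 to 10.64 in non-dyskinetic, 9.38 to 10.63 in dyskinetic and 8.94 to 9.51 in untreated nigra. For the dopamine neuron markers the non-dyskinetic and untreated nigral ranges did not overlap. The part of lesion extent in the results below was not tested. Arrays of a tissue correlated at 0.983 or more. Dyskinetic nigral replicate 3 had a dopamine neuron mean of 10.63, against 9.38 and 9.55 in the other dyskinetic arrays. For meningeal and striatal markers, the nigral arrays that stood apart were both from untreated rats. In replicate 3 the mean of 14 meningeal fibroblast markers was 8.79, against 7.38 to 7.64 in the other nigral arrays, and 12 of the 14 were higher there than in any other nigral array. Replicate 1 had a mean of 9.31 for the 5 striatal projection markers, against 7.98 to 8.50 in the rest, with 4 of 5 markers at their highest. Nigral calls of members that use untreated rats are therefore given with and without replicate 3. Fits without untreated replicate 1 are given only where a call was lost, and its part in the other values was not tested.

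**Figure D1:**
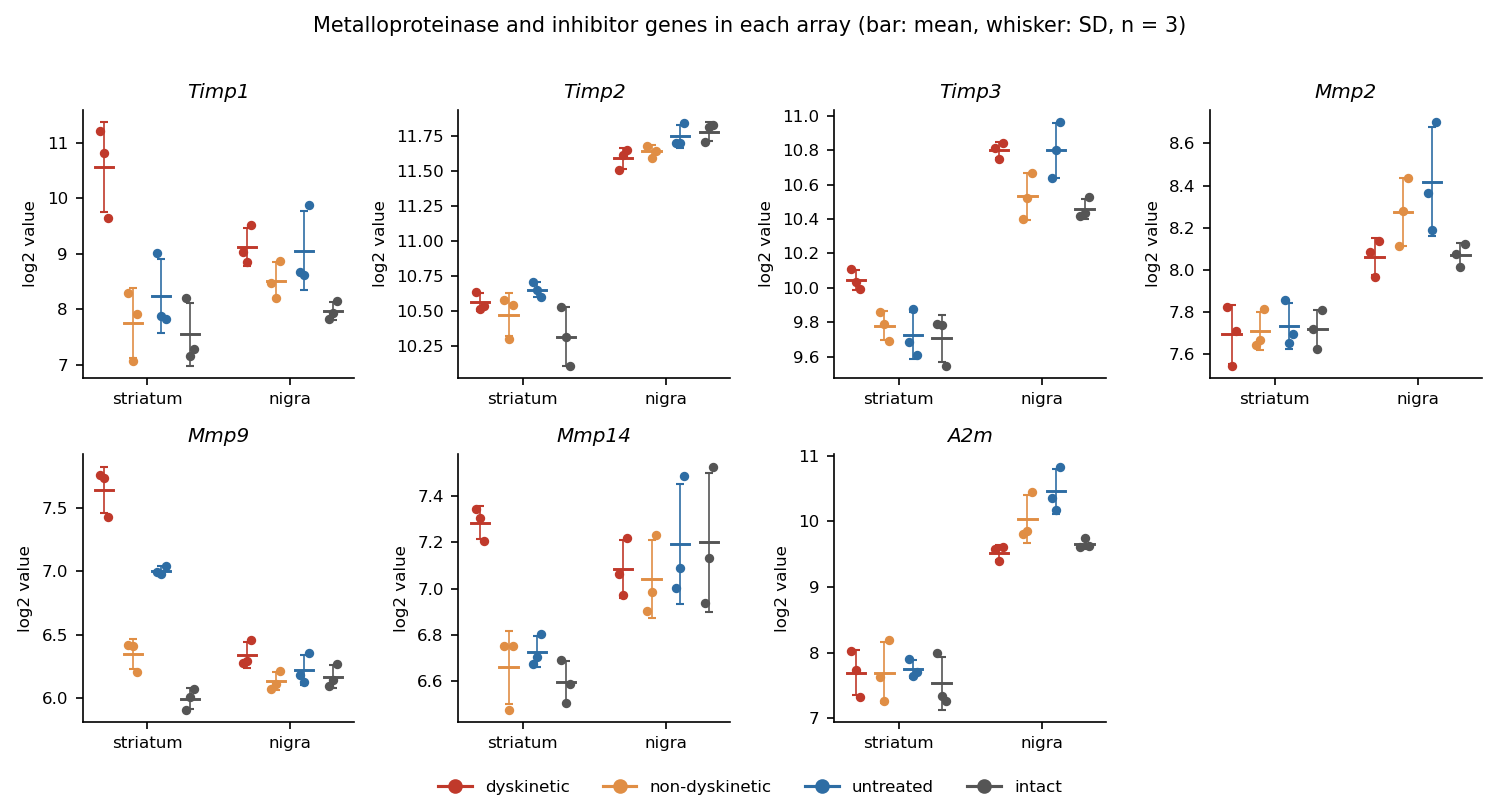
Log2 value of each of the 7 genes (vertical axis, scale set per gene) in the 24 arrays, by tissue and group; points are arrays, bars are means and whiskers the SD of 3 arrays. Among striatal groups Timp1, Mmp9 and Mmp14 are highest in dyskinetic rats, and A2m, Timp2 and Timp3 are higher in nigra than in striatum.

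In the striatum of dyskinetic rats, against rats also lesioned and given levodopa but without dyskinesia, Timp2, Timp3, Mmp2 and A2m did not pass the test. Transcripts of Timp1, Mmp9 and Mmp14 rose. The rise was 6.95-fold for Timp1, 2.45-fold for Mmp9 and 1.54-fold for Mmp14. Thus 3 of 7 members passed, all upward, where 5.26% of all tested genes passed in either direction and 3.06% upward. The same 3 genes were higher than in lesioned untreated striatum, where 5.18% of genes passed, and joined by Timp3 they were higher than in intact striatum, where 10.3% passed. Groups that did not overlap were far more common than calls: for these comparisons 23.6%, 23.0% and 33.3% of genes had them, and 4 of 7 members in each. In a tissue punch, more cells of a type and more RNA per cell cannot be told apart.

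Timp1, the inhibitor on chromosome X (chrX:3766509-3772578 in the GRCr8 annotation, as for all positions here), is a small secreted protein that binds several metalloproteinases, Mmp9 and its precursor among them. Timp2 lies at chr10:104041604-104089214 and Timp3 at chr7:19408539-19459558. The 250 bases before the annotated start, on the minus strand from RefSeq GRCr8, are shown for these 3 inhibitors because they belong to 1 family and their transcripts moved differently. The table of promoters held 3 of the 7 members. In mouse and human, an activator protein 1 (AP-1) element of the form TGAGTAA is known in the Timp1 promoter, and this variant was searched for that reason. Capitals mark it and the Sp1 motif GGGCGG, which reads CCGCCC on the opposite strand.
Timp1, chrX:3771123-3771372: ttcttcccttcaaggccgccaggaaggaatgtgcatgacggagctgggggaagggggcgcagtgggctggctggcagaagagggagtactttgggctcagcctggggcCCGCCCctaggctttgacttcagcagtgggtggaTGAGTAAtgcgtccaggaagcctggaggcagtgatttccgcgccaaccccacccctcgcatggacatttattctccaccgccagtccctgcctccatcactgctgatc
Timp2, chr10:104089215-104089464: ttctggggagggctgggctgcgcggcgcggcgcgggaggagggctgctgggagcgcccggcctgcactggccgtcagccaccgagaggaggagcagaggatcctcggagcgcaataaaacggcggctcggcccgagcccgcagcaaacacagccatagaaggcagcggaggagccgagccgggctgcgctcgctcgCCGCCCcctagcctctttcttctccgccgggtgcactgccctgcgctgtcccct
Timp3, chr7:19459559-19459808: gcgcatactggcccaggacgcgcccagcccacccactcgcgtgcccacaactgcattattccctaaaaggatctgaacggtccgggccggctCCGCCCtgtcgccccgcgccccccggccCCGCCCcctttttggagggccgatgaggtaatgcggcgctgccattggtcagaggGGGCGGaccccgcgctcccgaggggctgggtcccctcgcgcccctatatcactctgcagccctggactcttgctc

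Counting back from the start, the Timp1 window held TGAGTAA at -108 to -102, and an Sp1 motif at -142 to -137. The Timp1 start used by the table lies inside the gene span given above. The Timp2 and Timp3 windows held no TGAGTAA, with 1 Sp1 motif in Timp2 and 3 in Timp3. The canonical AP-1 motif TGANTCA, the cyclic AMP element TGACGTCA and TATAAA, searched on both strands like the others, were in none of the 3 windows. Of 33469 promoter windows of the same length, 2.38% held TGAGTAA, 6.34% TGANTCA, 1.59% TGACGTCA, 30.5% GGGCGG and 12.9% TATAAA. A match is a description of the letters and nothing more.

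Striatal Timp1 was 11.20, 10.81 and 9.64 in the 3 dyskinetic rats, 8.29, 7.06 and 7.91 in the non-dyskinetic, 9.01, 7.88 and 7.83 in the untreated and 8.19, 7.16 and 7.28 in the intact. Every dyskinetic array lay above every other striatal array, and the other groups overlapped each other. The group means were 10.55 ± 0.81, 7.75 ± 0.63, 8.24 ± 0.67 and 7.54 ± 0.56. Against non-dyskinetic rats the difference was 2.80 ± 0.41 (adjusted p = 0.000857), against untreated 2.31 ± 0.41 (adjusted p = 0.00312) and against intact 3.01 ± 0.41 (adjusted p = 0.000244). Dyskinetic replicate 3 was the lowest of its group by more than 1 log2 unit and still above the highest array of another group, untreated replicate 1. The non-dyskinetic and untreated groups each differed from intact by less than the test could call, by 0.21 ± 0.41 and 0.70 ± 0.41 (adjusted p = 0.890 and 0.767).

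Timp3, the inhibitor that stays bound to the matrix and also acts on ADAM proteases, was 10.11, 10.04 and 9.99 in dyskinetic striatum, 9.86, 9.79 and 9.69 in non-dyskinetic, 9.68, 9.88 and 9.61 in untreated and 9.79, 9.78 and 9.55 in intact striatum. The dyskinetic arrays were above all others, by a small margin. The difference was 0.34 ± 0.089 against intact (adjusted p = 0.0250), 0.32 ± 0.089 against untreated (adjusted p = 0.0505) and 0.27 ± 0.089 against non-dyskinetic rats (adjusted p = 0.102). The call against intact was lost without dyskinetic replicate 1 (0.31, adjusted p = 0.0919), dyskinetic replicate 2 (0.34, adjusted p = 0.0732) or intact replicate 3 (0.26, adjusted p = 0.126).

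Timp2, an inhibitor that also helps membrane-bound Mmp14 to activate the Mmp2 precursor, ran from 10.11 to 10.71 over the 12 striatal arrays. Its groups were 10.56 ± 0.064, 10.48 ± 0.15, 10.66 ± 0.055 and 10.32 ± 0.21 in dyskinetic, non-dyskinetic, untreated and intact rats. The intact group held both the lowest array and the widest spread. Its largest difference, 0.34 ± 0.10 between untreated and intact, did not pass (adjusted p = 0.288), though these groups did not overlap. The non-dyskinetic arrays also lay below the untreated ones, by -0.18 ± 0.10, which did not pass in limma (adjusted p = 0.757).

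Mmp9, also called gelatinase B (chr3:174103474-174111434), was the 1 member whose 4 striatal groups were all set apart. It was 7.76, 7.73 and 7.43 in dyskinetic, 7.00, 6.97 and 7.04 in untreated, 6.42, 6.41 and 6.21 in non-dyskinetic and 5.91, 6.01 and 6.07 in intact rats. No group's arrays overlapped those of any other group, in the order dyskinetic, untreated, non-dyskinetic, intact. The means were 7.64 ± 0.18, 7.00 ± 0.033, 6.35 ± 0.12 and 6.00 ± 0.081. The intact mean lay below the striatal filter at 6.21, so differences from intact rats were read against a low signal. Dyskinetic rats differed by 1.29 ± 0.093 from non-dyskinetic (adjusted p = 4.13e-06), by 0.64 ± 0.093 from untreated (adjusted p = 0.000738) and by 1.64 ± 0.093 from intact rats (adjusted p = 2.94e-07).

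Mmp9 was also higher in lesioned rats without levodopa than in intact rats, by 1.01 ± 0.093 (adjusted p = 0.000122), a factor of 2.01. It was the 1 member of 7 to pass in this comparison, in which 0.442% of genes passed. Groups did not overlap for 2 of 7 members, Mmp9 and Timp2, and for 14.8% of genes. Non-dyskinetic rats, lesioned and given levodopa, had less Mmp9 than untreated rats, by -0.66 ± 0.093 (limma, adjusted p = 0.0247). In this comparison too, groups did not overlap for 2 of 7 members, Mmp9 and Timp2, and for 10.0% of genes. Mmp9 was again the 1 member of 7 to pass, where 0.0322% of genes passed. That call was lost without any 1 of 5 arrays: the value became -0.69, -0.59, -0.67, -0.64 and -0.66 (adjusted p = 0.0519, 0.152, 0.0915, 0.0973 and 0.0523) without non-dyskinetic replicates 1 and 3, untreated replicates 2 and 3 and intact replicate 2. Non-dyskinetic and intact rats differed by 0.35 ± 0.093 with no overlap, which did not pass (adjusted p = 0.347). In that comparison 0 of 7 members and 0.0482% of genes passed, with 1 of 7 members and 14.5% of genes not overlapping. The comparisons with dyskinetic rats share arrays with each other, as do those with intact rats.

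Mmp14, the membrane-anchored metalloproteinase that activates the Mmp2 precursor (chr15:31857824-31867049), was 7.35, 7.30 and 7.21 in dyskinetic striatum. The other 9 striatal arrays ran from 6.48 to 6.80, with means of 6.66 ± 0.16 in non-dyskinetic, 6.73 ± 0.068 in untreated and 6.59 ± 0.093 in intact rats. The dyskinetic group stood above all of them, and the other groups overlapped. The differences were 0.63 ± 0.087, 0.56 ± 0.087 and 0.69 ± 0.087 (adjusted p = 0.000568, 0.00121 and 0.000125) against non-dyskinetic, untreated and intact rats.

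Mmp2, or gelatinase A (chr19:30327643-30355856), was even across the striatum. Its 12 arrays ran from 7.55 to 7.86, and the group means from 7.70 ± 0.14 in dyskinetic to 7.74 ± 0.11 in untreated rats. A2m (chr4:156570163-156619870), in rat an acute-phase protein of plasma, varied more between rats than between groups in striatum. It was 8.02, 7.74 and 7.33 in dyskinetic, 7.64, 7.27 and 8.19 in non-dyskinetic, 7.91, 7.64 and 7.71 in untreated and 8.0, 7.33 and 7.27 in intact rats. No striatal comparison of either gene passed, and the largest difference was 0.22 ± 0.22 for A2m between untreated and intact.

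**Figure D2:**
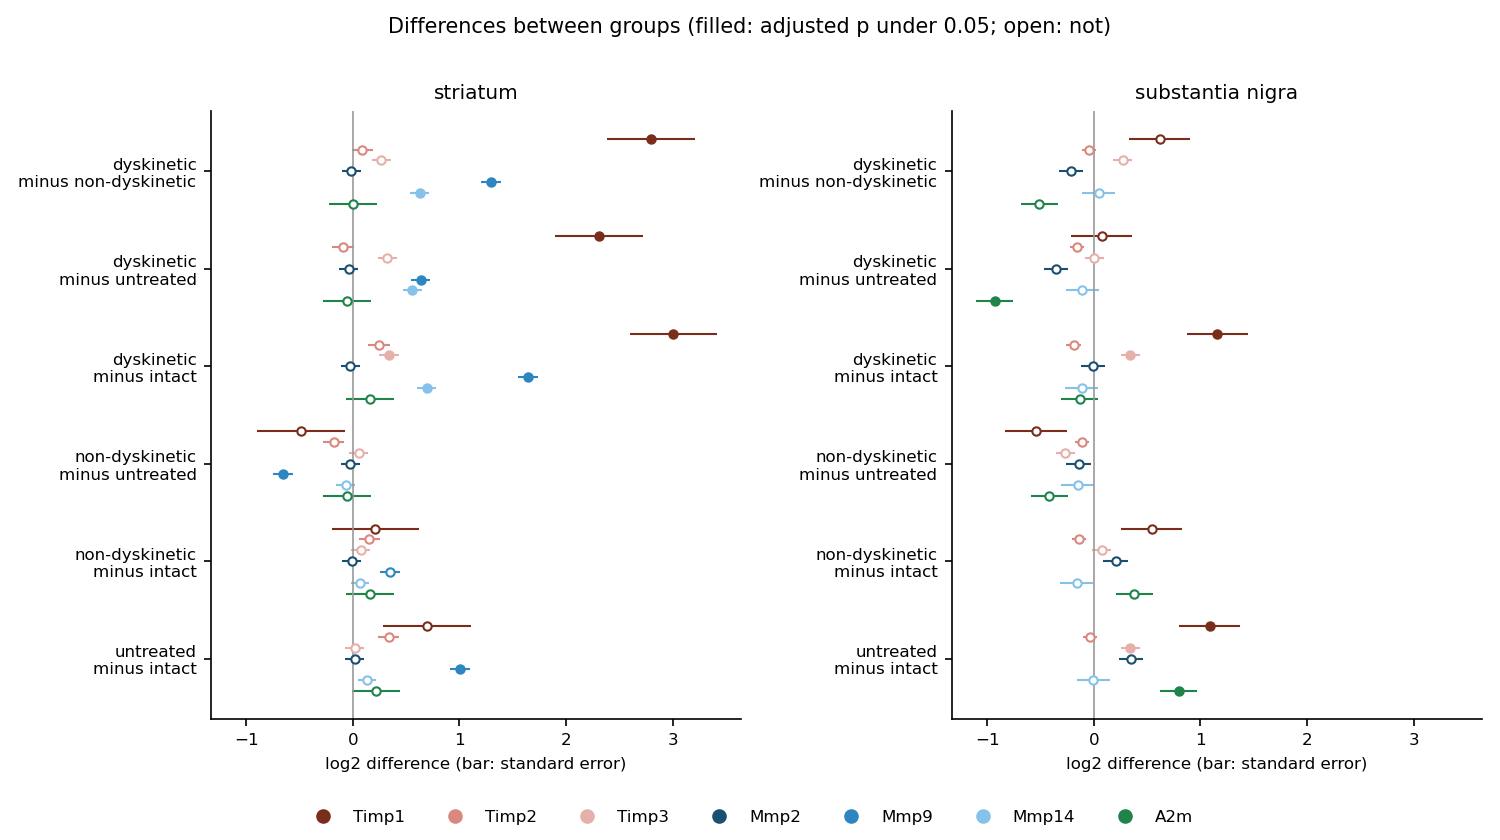
Log2 difference between groups (horizontal axis) for the 7 genes in striatum and nigra, with 1 standard error; filled points have an adjusted p under 0.05 and Mmp9 was not tested in nigra. In striatum Timp1, Mmp9 and Mmp14 lie right of 0 in the 3 comparisons of dyskinetic rats, and in nigra the filled points belong to Timp1, Timp3 and A2m.

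The probe sets of a gene, which sample its exons, showed whether the rise ran along the transcript. All 5 Timp1 probe sets were higher in dyskinetic than in non-dyskinetic striatum with no overlap, by 2.27 to 3.26, and 5 of 5 passed when single probe sets were tested, where 0.458% of 129693 did. For Mmp9 all 14 probe sets were higher, by 0.41 to 2.07, and 12 did not overlap. Mmp14 had 11 of 12 higher, at -0.09 to 0.96, and 8 without overlap. Of all probe sets that name 1 gene, 6.0% were higher without overlap. Many Mmp9 and Mmp14 probe sets were dim: 6 of 14 and 9 of 12 were bright enough to be tested, of which 1 and 2 passed. In non-dyskinetic against untreated striatum all 14 Mmp9 probe sets were lower, 7 of them with no overlap, as were 4.01% of all. Probe sets of 1 gene are measured on the same RNA and are no replicates of a condition.

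**Figure D3:**
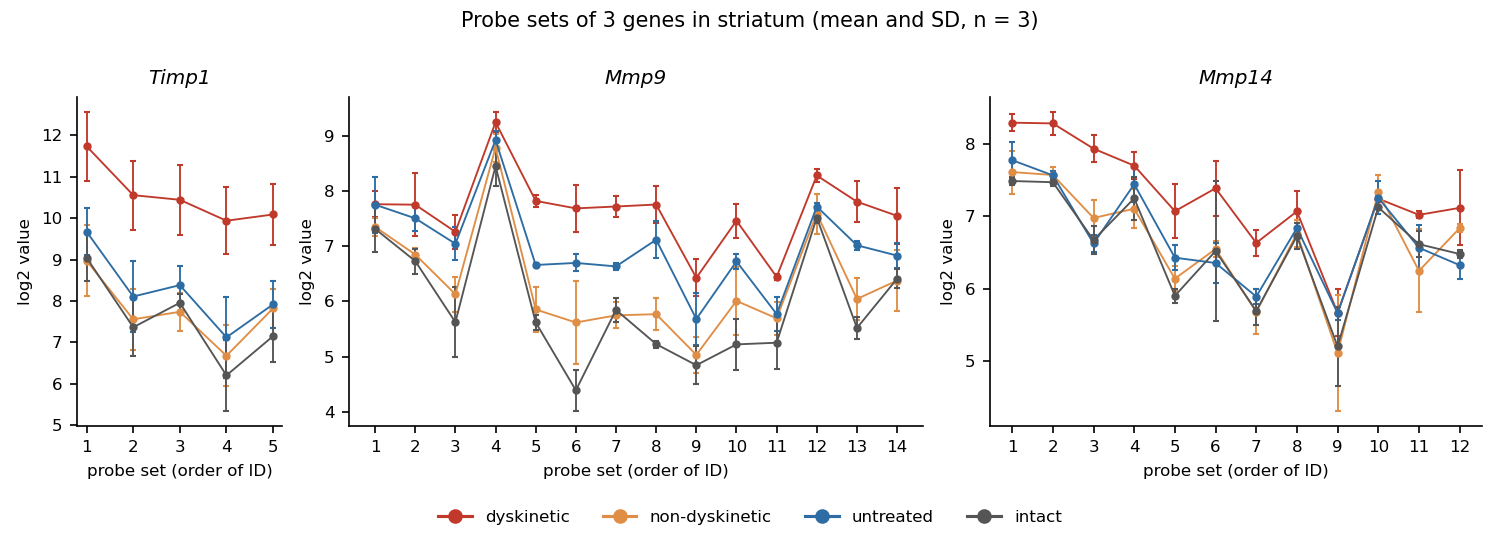
Mean log2 value with SD (3 arrays) of each probe set of Timp1, Mmp9 and Mmp14 in the 4 striatal groups; the horizontal axis gives the probe sets in order of their identifiers. The dyskinetic line is the highest at all 5 probe sets of Timp1 and at all 14 of Mmp9.

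Few markers of other cells passed in striatum. Between dyskinetic and non-dyskinetic striatum, 0 of 9 meningeal, 0 of 7 endothelial, 0 of 5 mural, 0 of 5 astrocyte, 0 of 7 microglial and 0 of 4 leukocyte markers that were tested passed in limma, and 8 of these 37 were at an unadjusted p under 0.05. Of all 12436 tested genes 5.26% passed, and 2655 were at an unadjusted p under 0.05. Whether the make-up of cells differed was not tested. Median differences of these lists ran from -0.11 for mural cells to 0.05 for meningeal fibroblasts. Of choroid plexus and dopamine neuron markers, 1 of 3 each rose, the latter being Th, tyrosine hydroxylase. The mean over the microglial list was 9.05 to 9.34 in dyskinetic and 8.98 to 9.34 in non-dyskinetic arrays, and over the endothelial list 8.61 to 8.67 and 8.64 to 8.75.

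In nigra, Timp1 and Timp3 rose in dyskinetic and in untreated rats over intact rats, A2m rose in untreated rats, and no member passed the test between dyskinetic and non-dyskinetic rats. Between dyskinetic and non-dyskinetic nigra 0 of 6 members tested passed in limma, against 0.241% of all genes. A2m and Timp3 were at an unadjusted p under 0.05, as were 1813 of all 12436 tested genes. Against intact nigra 2 of 6 passed in dyskinetic rats (16.1% of all genes), 0 of 6 in non-dyskinetic (4.7% of all genes) and 3 of 6 in untreated rats (12.8% of all genes). Between dyskinetic and untreated nigra A2m passed, being lower in dyskinetic rats, as 1 of 6 members, and 2.22% of genes passed. Without untreated replicate 3 the counts were 2 of 6 members and 8.84% of genes for untreated against intact, and 1 of 6 and 0.86% for dyskinetic against untreated. Between non-dyskinetic and untreated nigra 0 of 6 members and 0.0% of genes passed by limma, with 999 genes at an unadjusted p under 0.05, and without untreated replicate 3 there were 0 members and 1 gene. Groups did not overlap for 2 of 6 members and 21.3% of genes between dyskinetic and non-dyskinetic nigra, 3 of 6 and 25.7% between dyskinetic and untreated, and 1 of 6 and 10.9% between non-dyskinetic and untreated. Against intact nigra they did not overlap for 4, 3 and 4 of 6 members in dyskinetic, non-dyskinetic and untreated rats, and for 40.1%, 23.9% and 32.7% of genes.

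Nigral Timp1 was 9.02, 8.84 and 9.51 in dyskinetic, 8.46, 8.20 and 8.86 in non-dyskinetic, 8.67, 8.61 and 9.87 in untreated and 7.83, 7.92 and 8.15 in intact rats. All 9 lesioned arrays lay above the 3 intact ones, and the lesioned groups overlapped. Over intact rats the difference was 1.16 ± 0.29 in dyskinetic (adjusted p = 0.0167), 1.09 ± 0.29 in untreated (adjusted p = 0.0280) and 0.54 ± 0.29 in non-dyskinetic rats (adjusted p = 0.356). Untreated replicate 3, the array high in meningeal markers, had the highest Timp1 of all nigral arrays, and without it the difference from intact was 0.67 (adjusted p = 0.0497). The call in untreated rats was lost without intact replicate 1 or 2 (1.02 and 1.07, adjusted p = 0.0826 and 0.0956), and that in dyskinetic rats without dyskinetic replicate 3 or intact replicate 1 or 2 (0.97, 1.09 and 1.14, adjusted p = 0.0759, 0.0601 and 0.0608).

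Nigral Timp3 was 10.81, 10.75 and 10.84 in dyskinetic, 10.64, 10.80 and 10.96 in untreated, 10.40, 10.52 and 10.67 in non-dyskinetic and 10.42, 10.43 and 10.53 in intact rats. The dyskinetic and untreated groups each stood clear of intact, and the non-dyskinetic group overlapped it. Over intact rats the difference was 0.34 ± 0.088 in dyskinetic (adjusted p = 0.0196) and 0.34 ± 0.088 in untreated rats (adjusted p = 0.0252). Without untreated replicate 3 the latter was 0.26 (adjusted p = 0.0808). It was also lost without intact replicate 1 or 2 (0.32 and 0.33, adjusted p = 0.0752 and 0.0938), and the former without dyskinetic replicate 1 or 3 or intact replicate 1 or 2, where adjusted p reached 0.0731.

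A2m was 10.35, 10.18 and 10.84 in untreated nigra, 9.81, 9.85 and 10.45 in non-dyskinetic, 9.57, 9.40 and 9.60 in dyskinetic and 9.61, 9.74 and 9.63 in intact nigra. The untreated group was above intact and above dyskinetic rats with no overlap. The dyskinetic arrays lay just below the intact ones, and the non-dyskinetic group lay between, overlapping the untreated. The untreated group exceeded intact by 0.80 ± 0.17 (adjusted p = 0.0108), and dyskinetic rats fell below untreated by -0.93 ± 0.17 (adjusted p = 0.0227). Without untreated replicate 3 these were 0.61 (adjusted p = 0.0297) and -0.74 (adjusted p = 0.0490). The second call was lost without dyskinetic replicate 1, 2 or 3 or untreated replicate 1 (-0.95, -0.87, -0.97 and -0.98, adjusted p = 0.0733, 0.0708, 0.0791 and 0.0603). Of 35 A2m probe sets, 35 were higher in untreated than in intact nigra, 32 with no overlap, and 33 were lower in dyskinetic than in untreated nigra with no overlap, as were 9.66% and 12.3% of all probe sets that name 1 gene.

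The other members showed no call between nigral groups. Mmp2 was 8.36, 8.19 and 8.70 in untreated and 8.07, 8.01 and 8.12 in intact nigra, a difference of 0.35 ± 0.12 with no overlap (adjusted p = 0.0666), and 0.21 without untreated replicate 3 (adjusted p = 0.206). Mmp14 ran from 6.90 to 7.53 over the 12 arrays with the widest spread in intact rats, 7.20 ± 0.30. Timp2 was lowest in dyskinetic nigra, 11.59 ± 0.075, and highest in intact, 11.78 ± 0.065, a difference of -0.19 ± 0.067 (adjusted p = 0.0715). Mmp9, left untested, was 6.34 ± 0.10 in dyskinetic, 6.13 ± 0.073 in non-dyskinetic, 6.22 ± 0.12 in untreated and 6.17 ± 0.088 in intact nigra, and each group overlapped the next when ordered by mean.

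Some markers of other cells passed between nigral groups. Over 6 lists (meningeal, endothelial, mural, astrocyte, microglial and leukocyte) 8 of 37 tested markers passed in dyskinetic against intact nigra, where 16.1% of all genes did, and 4 of 37 in untreated against intact nigra, where 12.8% did. In dyskinetic against intact nigra 3 of 7 microglial and 3 of 7 endothelial markers passed upward, and in untreated against intact nigra 2 of 5 astrocyte and 2 of 4 leukocyte markers did. The mean of the microglial list was 9.72 to 9.90 in dyskinetic, 9.61 to 10.07 in non-dyskinetic, 9.68 to 9.91 in untreated and 9.42 to 9.59 in intact rats. In non-dyskinetic against intact nigra 2 of the 37 markers passed, 1 microglial and 1 leukocyte, where 4.7% of all genes did. Against intact nigra all 5 dopamine neuron markers fell in dyskinetic and in untreated rats, and 4 of 5 fell in non-dyskinetic rats. The part of these cells in the results on Timp1, Timp3 and A2m was not tested.

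**Figure D4:**
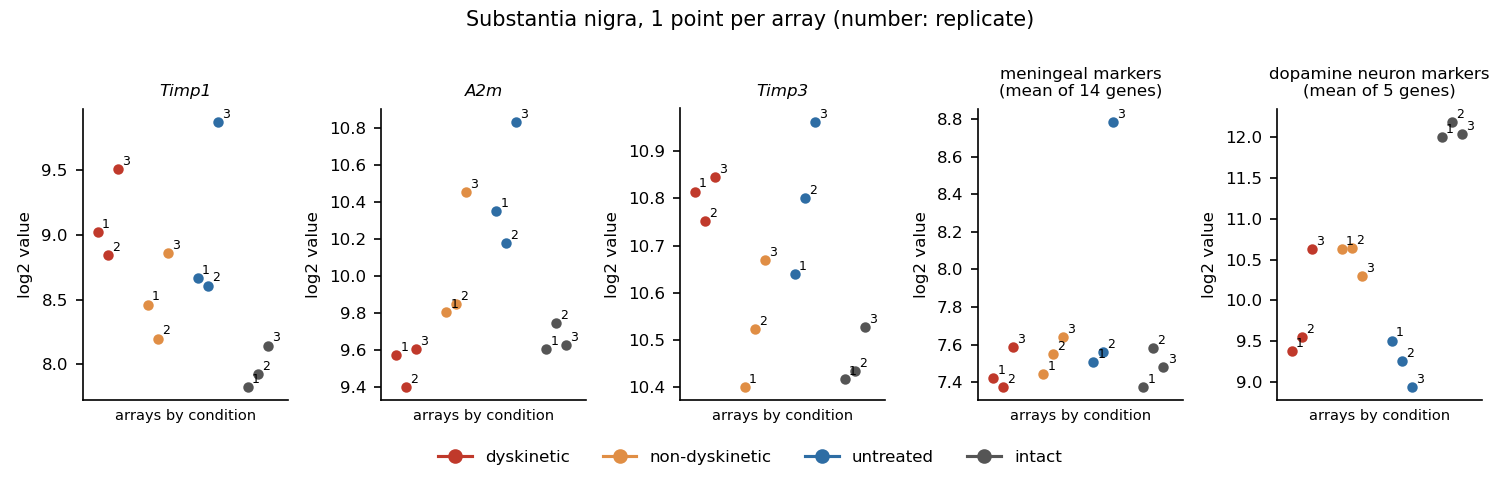
Log2 values of Timp1, A2m and Timp3 and the mean log2 value of 14 meningeal and 5 dopamine neuron markers (vertical axes) in the 12 nigral arrays, by group along the horizontal axis, with the replicate number beside each point. Untreated replicate 3 is highest for all 3 genes and, at 8.79, for the meningeal markers.

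Between the tissues of intact rats, striatum was lower than nigra for A2m by -2.15 ± 0.21 (adjusted p = 4.42e-09), for Timp2 by -1.48 ± 0.083 (adjusted p = 5.47e-13), for Timp3 by -0.76 ± 0.088 (adjusted p = 7.82e-08), for Mmp14 by -0.62 ± 0.12 (adjusted p = 9.70e-05) and for Mmp2 by -0.35 ± 0.099 (adjusted p = 0.00310). Timp1 and Mmp9 did not pass. These 5 of 7 members compare with 74.3% of all genes called, 62.5% of all genes being lower in striatum. This fit took the 24 arrays together and treated arrays of the same rat as correlated. The median difference over all genes was -0.32, and array medians averaged 7.94 in striatum and 8.25 in nigra. With each array centred on its median, the share of higher genes among the calls went from 15.9% to 50.1%, the Mmp2 difference was -0.02 (adjusted p = 0.837), and the other 4 kept their calls. Relative to that shift A2m was lower in striatum by -1.82, Timp2 by -1.15, Timp3 by -0.43 and Mmp14 by -0.30 (adjusted p of at most 0.0435), and the Mmp9 difference of -0.17 turned to 0.15 without passing either way.

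Whether the effect of dyskinesia differed between tissues was tested in the same fit, where 2 of 7 members and 1.53% of genes passed. The striatal difference between dyskinetic and non-dyskinetic rats exceeded the nigral one by 1.08 ± 0.12 for Mmp9 (adjusted p = 3.16e-05) and by 2.14 ± 0.54 for Timp1 (adjusted p = 0.0461). Nigral Mmp9, at a mean of 6.22, lay below the nigral filter at 6.44, and Mmp9 entered this fit through its striatal values. Its nigral differences were thus read at low signal, and its excesses here do not show that the nigral effect was smaller. For Mmp14 the excess of 0.58 ± 0.17 did not pass (adjusted p = 0.113). The Timp1 call was lost in 20 of 30 alternative fits, among them the one limited to rats that gave both tissues (1.81, adjusted p = 0.270). For untreated against intact rats the measured striatal difference of Mmp9 exceeded the nigral one by 0.96 ± 0.12 (adjusted p = 1.14e-05), with the same limit, and by 1.02 without untreated nigral replicate 3 (adjusted p = 1.05e-05). Mmp9 was the 1 member of 7 to pass, where 5.89% of genes did. For Timp2 the excess of 0.38 ± 0.12 did not pass (adjusted p = 0.0535), and was 0.43 (adjusted p = 0.0409) without untreated nigral replicate 3.

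Of the wider protease system, 7 of 72 tested list genes rose in dyskinetic over non-dyskinetic striatum and none of them was another metalloproteinase, where 5.26% of all genes passed and 3.06% upward. In limma 0 of 7 tested genes for other metalloproteinases passed (2 at an unadjusted p under 0.05), 1 of 20 for ADAM and ADAMTS proteases, 1 of 11 for other inhibitors and partners, 2 of 7 of the plasminogen system and 3 of 27 matrix substrates, all upward. Median differences of the lists were 0.02, 0.01, -0.03, 0.08 and 0.06 in that order, against -0.03 over all genes. None of the 72 tested list genes passed in limma between non-dyskinetic and untreated, non-dyskinetic and intact, or untreated and intact striatum. Of them 4, 7 and 2 were at an unadjusted p under 0.05, in that order. Of all genes 0.0322%, 0.0482% and 0.442% passed, and 833, 1064 and 968 of 12436 were at that unadjusted p. Between dyskinetic and non-dyskinetic striatum 2655 of 12436 genes were.

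In the plasminogen system, which makes the plasmin that activates several metalloproteinase precursors, the urokinase receptor Plaur was 9.83, 9.76 and 9.46 in dyskinetic and 8.88, 8.13 and 8.38 in non-dyskinetic striatum. The difference was 1.22 ± 0.15 (adjusted p = 0.000222), with 1.33 ± 0.15 against untreated and 1.42 ± 0.15 against intact rats. Plat, tissue plasminogen activator, was 9.72, 9.85 and 9.76 against 9.17, 9.19 and 9.11, a difference of 0.62 ± 0.081 (adjusted p = 0.000365). Neither gene's dyskinetic arrays overlapped another striatal group. Furin, the convertase that cuts the precursor of Mmp14, was 9.00, 9.04 and 8.76 against 8.40, 8.59 and 8.36, a difference of 0.48 ± 0.086 (adjusted p = 0.00393).

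Adamts9, a secreted protease that cuts proteoglycans, was higher in dyskinetic than in non-dyskinetic striatum by 0.78 ± 0.10 (adjusted p = 0.000359). Vcan, the proteoglycan versican that such proteases cut, was 9.77, 9.94 and 9.40 in dyskinetic rats, while the other 9 striatal arrays ran from 8.26 to 8.47, a difference of 1.32 ± 0.11 (adjusted p = 1.01e-05). Ccn1, a matricellular protein, differed by 1.04 ± 0.21 (adjusted p = 0.00984) and Fn1, fibronectin, by 0.51 ± 0.097 (adjusted p = 0.00628). Against untreated rats the laminin chain Lamb1 (0.34 ± 0.079, adjusted p = 0.0208) and Adamts3 (0.52 ± 0.11, adjusted p = 0.00925) passed too, and against intact rats Lamb1 (0.50 ± 0.079, adjusted p = 0.000821). Calls of Fn1 and Lamb1 against untreated rats were lost without dyskinetic replicate 1 or 2 or untreated replicate 1 (adjusted p of at most 0.0920), that of Lamb1 also without dyskinetic replicate 3 or untreated replicate 2, and that of Adamts3 without dyskinetic replicate 1 (adjusted p = 0.0523). The excess of the striatal over the nigral effect of dyskinesia passed for Plaur (1.04 ± 0.17, adjusted p = 0.00107), Vcan (1.08 ± 0.15, adjusted p = 0.000231) and Furin (0.47 ± 0.11, adjusted p = 0.0203). The Furin call was lost without striatal dyskinetic replicate 1 or 2, non-dyskinetic replicate 3 of either tissue or nigral dyskinetic replicate 1 (0.42 to 0.45, adjusted p of at most 0.105).

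**Figure D5:**
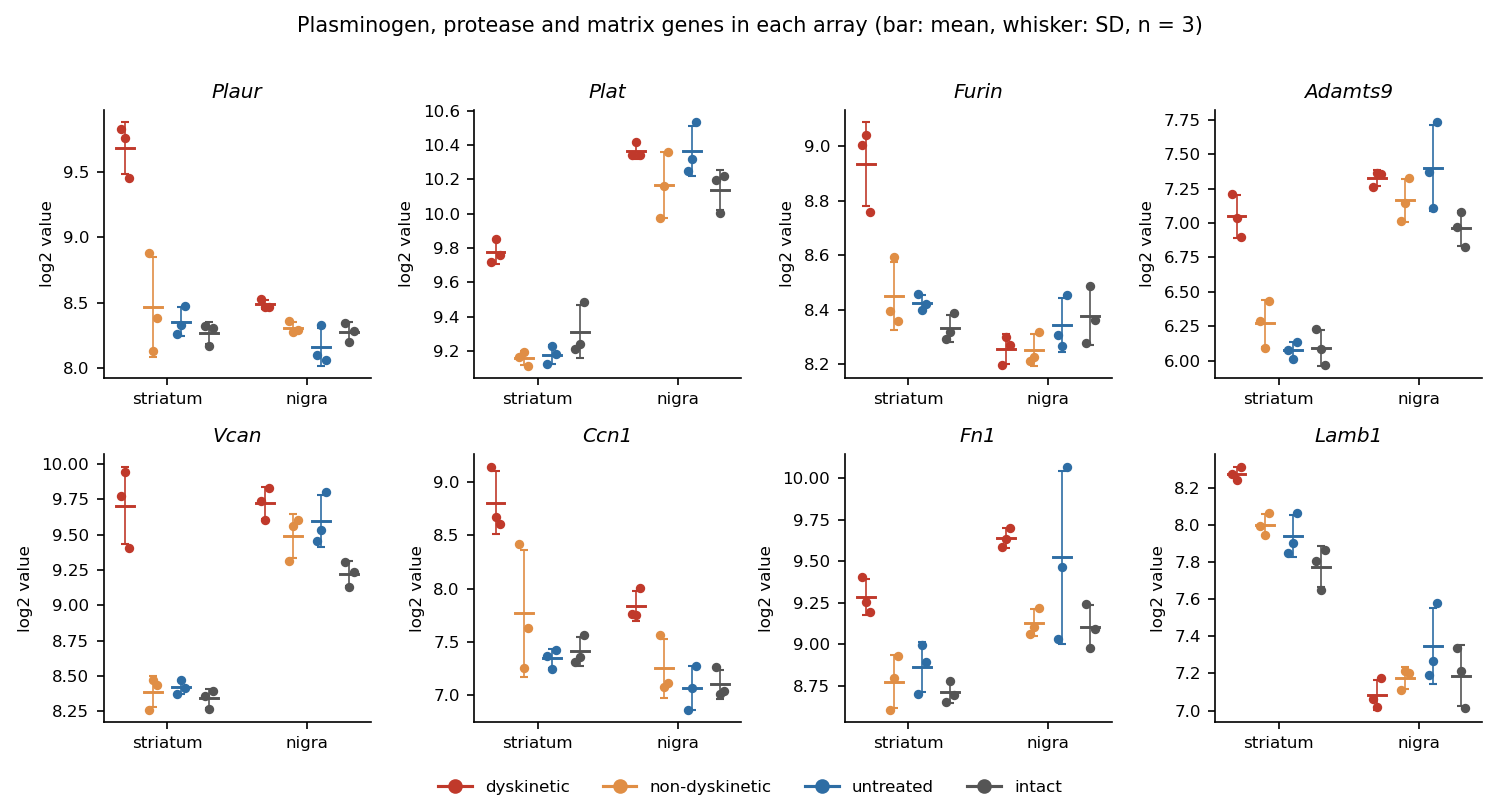
Log2 values (vertical axes) of 8 genes of the plasminogen system, protease processing and matrix in the 24 arrays, by tissue and group; points are arrays, bars means and whiskers the SD of 3 arrays. Plaur, Plat, Adamts9 and Vcan have all 3 dyskinetic striatal arrays above the other 9.

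In nigra 11, 4 and 9 of 72 tested list genes passed against intact rats in dyskinetic, non-dyskinetic and untreated rats, where 16.1%, 4.7% and 12.8% of all genes did. Between dyskinetic and untreated nigra 4 of 72 passed, where 2.22% of all genes did. Plaur, Serpine2 and Ccn1 were higher in dyskinetic rats and Adamts19 was lower. Without untreated replicate 3, Plaur (0.27), Serpine2 (0.27) and Adamts19 (-0.38) did not pass in limma (adjusted p = 0.138, 0.113 and 0.108). Adamts6 fell against intact rats in all 3 lesioned groups, by -0.94 ± 0.10 in dyskinetic, -0.78 ± 0.10 in non-dyskinetic and -0.90 ± 0.10 in untreated rats (adjusted p = 7.90e-05, 0.000740 and 0.000121), and by -0.93 in untreated rats without replicate 3 (adjusted p = 0.000268). Ccn1 was higher in dyskinetic nigra than in untreated (0.77 ± 0.14, adjusted p = 0.0187, up to 0.0895 without dyskinetic replicate 1 or 3 or untreated replicate 1, and 0.87 without untreated replicate 3, adjusted p = 0.0136) and intact nigra (0.74 ± 0.14, adjusted p = 0.00345). Timp4, the inhibitor of this family outside the 7 members, was higher in dyskinetic than in intact nigra by 0.26 ± 0.073 (adjusted p = 0.0283), a call lost without dyskinetic replicate 1 or 3 or any 1 intact array (0.22 to 0.28, adjusted p of at most 0.117). Of 72 tested list genes, 0 passed in limma between dyskinetic and non-dyskinetic nigra, and 12 were at an unadjusted p under 0.05. Of all 12436 tested genes 0.241% passed, and 1813 were at that unadjusted p.

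As a description, over the 12 striatal arrays the genes that ran most closely with Timp1 among 12435 others were Rhoq (Pearson r = 0.957), Fli1 (0.955), Creb3l2 (0.955), Ier3 (0.952) and Ptp4a1 (0.949). Mmp14 stood at rank 12 (r = 0.942) and Mmp9 at rank 241 (r = 0.845). Those closest to Mmp9 were Tac3, the neurokinin B precursor (0.979), Ptprn (0.972), Nmu (0.969), Mmd (0.956) and Nptx1 (0.951), with Mmp14 at rank 94 and Timp1 at 106. In nigra Emp3 (0.981), Cxcl16 (0.954), Arpc1b (0.954), Cdk6 (0.945) and Hspb1 (0.942) ran closest to Timp1, and Timp3 stood at rank 26 (0.898). Arrays of a group share their treatment and the 12 arrays are not independent points.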

How the data were processed

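Total RNA of 24 punches was read on exon-level arrays. The deposited log2 values were made with RMA in oligo 1.34 under R 3.2.3, per the submitters' processing notes; whether both tissues were normalised together was not given in the sources used here. Of 213067 probe sets, 172924 named 1 gene, 1661 several and 38482 none in the platform annotation, whose symbols were updated through RefSeq. A gene's value is the mean of its single-gene probe sets, and genes in the lowest 25% by tissue mean were left out. Differences were tested with limma 3.58.1 (lmFit, eBayes, R 4.3.3) across all genes, per tissue over 12 arrays with 1 mean per group, and across tissues over 24 arrays with the rat as a random effect (correlation 0.152). P-values were adjusted by Benjamini and Hochberg, with a threshold of 0.05. The pipeline was tested on simulated data. Within a tissue each array is a separate rat. Array values carry no count depth.

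The members and all lists were chosen with earlier results of these data known. Named beyond the members were at most 4 genes per list and comparison with the largest called differences, and the 5 genes most alike to Timp1 and Mmp9 by Pearson r. Alternatives were the median over probe sets, dim probe sets left out, other filters, the 6 arrays compared only, trend and robust fits, array weights, median centring, a replicate block, rats that gave both tissues, no animal block, and each array left out.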

Additional observations from a re-analysis of the deposited data

Results flagged for a closer look

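For Mmp9 the measured difference between dyskinetic and non-dyskinetic rats exceeded in striatum that in nigra by 1.08 ± 0.12 on the log2 scale (limma, adjusted p = 3.16e-05), being 1.29 in striatum and 0.21 in nigra, with the 3 dyskinetic arrays above the 3 non-dyskinetic in both. For untreated against intact rats the excess was 0.96 ± 0.12 (limma, adjusted p = 1.14e-05). Nigral Mmp9 lay below the filter on low values and was in the fit through striatum alone, so neither value shows a smaller effect in nigra. For Timp1 the excess was 2.14 ± 0.54 (limma, adjusted p = 0.0461), with 3 of 3 dyskinetic arrays above the others in striatum and overlap in nigra. The cross-tissue call of Timp1 was lost in 20 of 30 alternatives, with adjusted p up to 0.270.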

How the results depend on the processing

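Of 2295 values of a member under an alternative, 2221 kept their side of the threshold (78 of them changed sign with no call on either side). A call was lost in 52 and gained in 22, and no call reversed. Of 26 calls, 17 held under every alternative in which the gene was tested. Alternatives that left a gene untested, as for Mmp9 and Mmp14 below, do not count as a loss there. In dyskinetic against non-dyskinetic striatum, Timp1 ran from 2.45 to 3.25, Mmp9 from 1.23 to 1.60 and Mmp14 from 0.52 to 0.67.

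With dim probe sets or the lowest 50% of genes left out, Mmp9 and Mmp14 were not tested, so striatal member calls were 1 (dyskinetic against non-dyskinetic), 2 (dyskinetic against intact), 0 (untreated against intact) and 0 (non-dyskinetic against untreated). With dim probe sets out but no filter, chosen after seeing the data, both kept the first call (1.26 and 0.60). Non-dyskinetic against untreated striatum also gave 0 with medians or only the 6 arrays compared. In nigra, dyskinetic against untreated gave 0 with only 6 arrays and 2 with array weights, and untreated against intact gave 1 with only 6 arrays. The tissue difference for dyskinetic against non-dyskinetic rats gave 0 with medians and 1 with no animal block, no filter or rats that gave both tissues. That for untreated against intact gave 0 with medians and 2 after centring or with rats that gave both tissues.

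Leaving out single arrays gave 0 to 1 calls for non-dyskinetic against untreated striatum. In nigra the calls were 0 to 2 for dyskinetic against untreated or intact and 1 to 4 for untreated against intact. For each tissue difference they were 1 to 2.

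Deviations of arrays from their group means were correlated between groups of a tissue. For same-numbered arrays r was -0.29 to 0.29 in nigra and -0.27 to 0.38 in striatum. For other-numbered arrays it was -0.37 to 0.26 and -0.35 to 0.30. The pairs of groups varied. In striatum r for the same number was 0.099 to 0.34 between dyskinetic and intact arrays, and -0.23 to 0.11 for other numbers. Between dyskinetic and non-dyskinetic striatum it was -0.27 to 0.047 and -0.14 to 0.30. As not every same-numbered pair was over 0.1, the arrays were taken to share only a number. This rule cannot show that no factor was shared. A replicate block called Timp3 against untreated striatum (adjusted p = 0.0251) and Mmp2 in untreated against intact nigra (adjusted p = 0.0310), lost the Timp1 tissue difference (adjusted p = 0.119), leaving 1 call there, and changed no other member call.

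Counts over all genes moved by over 1.5 times: 654 calls between dyskinetic and non-dyskinetic striatum became 293 without dyskinetic replicate 2, 644 against untreated ran from 381 (without dyskinetic replicate 1) to 1152 (array weights), and 1281 against intact from 719 (without dyskinetic replicate 2) to 1926 (array weights). In nigra 276 (dyskinetic against untreated) ran from 34 (without dyskinetic replicate 3) to 3393 (array weights), 1996 (dyskinetic against intact) from 1003 (without intact replicate 2) to 3307, 584 (non-dyskinetic against intact) from 222 to 991 and 1589 (untreated against intact) from 628 to 3725 (same settings). Small counts moved too: 4 (non-dyskinetic against untreated striatum) from 1 to 12, 6 (against intact) from 0 to 16, 55 (untreated against intact) from 25 to 191, 30 (dyskinetic against non-dyskinetic nigra) from 0 to 104 and 0 (non-dyskinetic against untreated nigra) to 67. The tissue differences gave 79 to 319 calls in place of 190, and as few as 446 in place of 732. Median centring moved the share of higher calls from 58.3% to 70.6% (dyskinetic against non-dyskinetic striatum), 34.4% to 65.6% (dyskinetic against untreated nigra) and 34.4% to 51.1% (dyskinetic against intact nigra). Causes were not tested.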

Other observations

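After the values were seen, replicate numbers were compared across groups. In nigra 5 of 7 members (Timp1, Timp3, Mmp2, Mmp9 and Mmp14) had their highest array of a group in replicate 3 in all 4 groups, as did 1.98% of all 16582 genes. In striatum Timp1 and Timp2 had it in replicate 1 in all 4 groups, as did 2.78% of all genes. The labels do not say that a number marks a shared litter, batch or day.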
